A study of Mus musculus with 4 samples.

Results

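Replication licensing loads the MCM helicase onto DNA once per cell cycle, and 10 genes of this step were followed: Mcm2, Mcm3, Mcm4, Mcm5, Mcm6, Mcm7, Mcm10, Cdt1, Cdc6 and Gmnn. They were taken by gene symbol from expression tables of 47561 genes, and all 10 were found. RNA-seq had been performed on LSK cells (lineage-negative, Sca-1-positive and c-Kit-positive), the bone marrow fraction of hematopoietic stem and multipotent progenitor cells. The 2 Metrn cKO libraries came from mice with a floxed Metrn gene and LysM, a driver that acts in myeloid cells such as macrophages and neutrophils and not throughout the LSK fraction. The 2 Metrn f/f libraries came from mice with the same floxed gene and no driver, so both groups carried the floxed allele. All mice were of the C57BL/6 strain and 12 weeks old, and the series addressed what Meteorin, the secreted product of Metrn, does for stem and progenitor cells when macrophages lack it. Levels are given as FPKM (fragments normalized to transcript length and to mapped reads), a unit that the headers do not name and that was inferred from the values. FPKM is meant to make genes of different length comparable. The differences of Metrn f/f 2 and Metrn cKO 1 from Metrn f/f 1 and Metrn cKO 2 nevertheless followed transcript length, as given with the results. Which of these libraries carry the trend was not tested.

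In the G1 phase, the origin recognition complex and Cdc6 mark an origin, and Cdt1 brings the ring of Mcm2 to Mcm7 to it. The ring is inactive until kinases and further factors, Mcm10 among them, turn it into the moving helicase in S phase. Geminin, the product of Gmnn, then binds Cdt1 and prevents a second loading until the cell has divided. Most of these genes are known targets of E2F transcription factors, and stem cells at rest are known to keep them low until they enter the cycle.

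Most of the licensing gene promoters that could be searched held an E2F-type motif. The choice of genes had not used the motif, but most of them were already known as E2F targets, as given above. RefSeq promoter windows on GRCm38.p6, from 250 bases before to 50 bases after each start, were given for 8 of the 10 genes, and Mcm4 and Gmnn were not in that table. An E2F-type motif was searched on both strands as TTTCCCGC, TTTGGCGC, TTTCGCGC or TTTGCCGC, and overlapping matches were counted. A match lay in 6 of the 8 genes (75% of genes), against 2.60% of the 27025 genes in the table and 4.92% of the 9628 tested genes with a window. The 2 genes without a match were Mcm2 and Mcm10. Among other replication genes a match lay in 7 of 20 genes of the replication fork and in 5 of 10 genes of the E2F and pocket protein list. It lay in 2 of 7 genes each of the origin recognition and helicase activation lists, and in 2 of 12 licensing control genes. The shorter motif CCAAT lay in 6 of the 8 licensing genes, against 41.1% of all genes in the table, with no match in Cdt1 or Cdc6. The stretches below are shown because they hold E2F-type matches, and those stand in capitals. Positions count from the annotated start. They describe letters in these windows, and no binding was measured.

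Mcm6, chr1:128359706-128359825, minus strand, positions -120 to -1: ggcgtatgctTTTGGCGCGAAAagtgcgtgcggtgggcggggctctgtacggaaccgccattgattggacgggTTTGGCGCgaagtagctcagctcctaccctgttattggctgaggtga
Mcm5, chr8:75109339-75109458, plus strand, positions -170 to -51: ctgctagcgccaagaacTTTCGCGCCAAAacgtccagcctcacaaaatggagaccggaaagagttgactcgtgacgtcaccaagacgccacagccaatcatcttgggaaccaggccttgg
Mcm3, chr1:20820265-20820294, minus strand, positions 19 to 48: gGCGGGAAAacttgggaagtTTTGGCGCca
Mcm7, chr5:138172030-138172059, minus strand, positions -176 to -147: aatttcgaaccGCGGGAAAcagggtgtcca
Cdt1, chr8:122568035-122568064, plus strand, positions 21 to 50: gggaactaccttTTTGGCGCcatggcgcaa
Cdc6, chr11:98908002-98908031, plus strand, positions -149 to -120: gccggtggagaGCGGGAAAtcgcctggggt

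In Mcm6 and Mcm5 a pair of matches on opposite strands overlapped, at positions -110 to -99 and -153 to -142. In Mcm3 and Cdt1 the matches lay after the start, and Mcm7 held a second one there, at positions 17 to 24, outside the stretch shown.

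The libraries did not group by genotype. Metrn cKO 2 and Metrn f/f 1 differed by 2-fold or more in 179 of 13148 tested genes, whereas 2514 genes differed so between the 2 Metrn cKO libraries and 4681 between the 2 Metrn f/f libraries. Whether each library carries its true label was not tested, and each genotype estimate takes the labels as given. The FPKM values summed to 562401 and 412955 in Metrn cKO 1 and 2, and to 392717 and 671802 in Metrn f/f 1 and 2; read totals were unknown, so counting error could not be given. The sort markers Kit and Ly6a and the progenitor markers Cd34 and Flt3 had at least 24.8 FPKM in every library, and Kit itself had 25.9 and 116 FPKM in Metrn cKO 1 and 2, against 108 and 24.8 in Metrn f/f 1 and 2. Markers of mature cells stood high in Metrn cKO 1 and Metrn f/f 2. The 8 neutrophil markers summed to 58421 and 2002 FPKM in Metrn cKO 1 and 2, against 2550.4 and 32529 in Metrn f/f 1 and 2, and the 9 erythroid markers to 31490.4 and 3217, against 3978 and 37619. The 8 macrophage markers summed to 182 and 49.9 FPKM in Metrn cKO, against 42.0 and 947 in Metrn f/f, and the 8 B and plasma cell markers to 1052 and 71.6, against 60.2 and 531. None of these markers was at 0 in any library. The 6 T and NK markers summed to 178 and 145 FPKM in Metrn cKO and 151 and 259 in Metrn f/f, most of it Nkg7, with Cd3e and Cd3g at 0 in Metrn cKO 2 and Cd3d at 0 in Metrn f/f 1. The 6 megakaryocyte markers summed to 22.9 and 32.9 FPKM in Metrn cKO, against 36.3 and 92.2 in Metrn f/f. The targeted gene Metrn had 42.3 and 36.7 FPKM in Metrn cKO and 29.3 and 66.3 in Metrn f/f. This check is of limited use in cells where the driver is not expected to act throughout. Lyz2, the gene for which the LysM driver is named, had 2904 and 245 FPKM in Metrn cKO and 290 and 2406 in Metrn f/f. Metrn cKO 1, the library with the most Lyz2, had more Metrn than Metrn f/f 1 and less than Metrn f/f 2. Loss of Metrn in the cells where the driver acts was not tested. In these bulk samples fewer cells of a type and less RNA per cell cannot be told apart.

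The helicase ring was the most abundant set of licensing transcripts. Mcm7, a ring subunit (chromosome 5, positions 138164583 to 138172422 of GRCm38), had 160.5 and 159 FPKM in Metrn cKO 1 and 2 and 161 and 129.6 FPKM in Metrn f/f 1 and 2. Mcm6, another ring subunit (chromosome 1, positions 128331590 to 128359664), had 133 and 156 FPKM in Metrn cKO and 158 and 101 FPKM in Metrn f/f. Both genes were lowest in Metrn f/f 2, and the groups overlapped. Mcm3 (chromosome 1, positions 20802968 to 20820312) had 109 and 112 FPKM in Metrn cKO and 119 and 83.7 FPKM in Metrn f/f. Mcm5 (chromosome 8, positions 75109569 to 75128439) had 116 and 109 FPKM in Metrn cKO and 103 and 87.8 FPKM in Metrn f/f. Mcm5 was the 1 ring gene whose groups did not overlap, and its lower Metrn cKO value exceeded its higher Metrn f/f value. Mcm2, which also carries old histones past the fork (chromosome 6, positions 88883474 to 88898780), had 83.7 and 77.5 FPKM in Metrn cKO and 84.1 and 59.3 FPKM in Metrn f/f. Mcm4 (chromosome 16, positions 15623897 to 15637400) had 50.4 and 54.0 FPKM in Metrn cKO and 52.2 and 29.4 FPKM in Metrn f/f. For Mcm2 and Mcm4, 3 libraries lay close together and Metrn f/f 2 lay below them.

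By mean level the loading factors and the late factor Mcm10 were less abundant than the ring genes. Cdt1 lay above the ring gene Mcm4 in Metrn cKO 2, at 56.0 against 54.0 FPKM. Cdt1, the loader that escorts the ring (chromosome 8, positions 122568015 to 122573554), had 39.1 and 56.0 FPKM in Metrn cKO and 47.9 and 25.5 FPKM in Metrn f/f. The annotated readthrough locus Gm20388 overlaps Cdt1 on the same strand, so its reads can be shared. Cdc6, the ATPase that works beside the origin recognition complex (chromosome 11, positions 98907801 to 98923940), had 14.7 and 12.5 FPKM in Metrn cKO and 11.2 and 8.49 FPKM in Metrn f/f. Cdc6 was the other gene whose groups did not overlap, and it was higher in Metrn cKO. Mcm10, which is not a ring subunit and helps to start the fork (chromosome 2, positions 4989714 to 5012791), had 15.3 and 14.9 FPKM in Metrn cKO and 16.8 and 8.71 FPKM in Metrn f/f, with overlapping groups.

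Gmnn, the inhibitor of Cdt1, ran against the other licensing genes (chromosome 13, positions 24751845 to 24761923). It had 58.8 and 44.9 FPKM in Metrn cKO and 45.9 and 71.9 FPKM in Metrn f/f. Metrn f/f 2 was its highest library, whereas it was the lowest library for all of the other 9 genes. The groups overlapped, and the 2 libraries with high markers of mature cells, Metrn f/f 2 and Metrn cKO 1, held its 2 highest values.

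**Figure D1:**
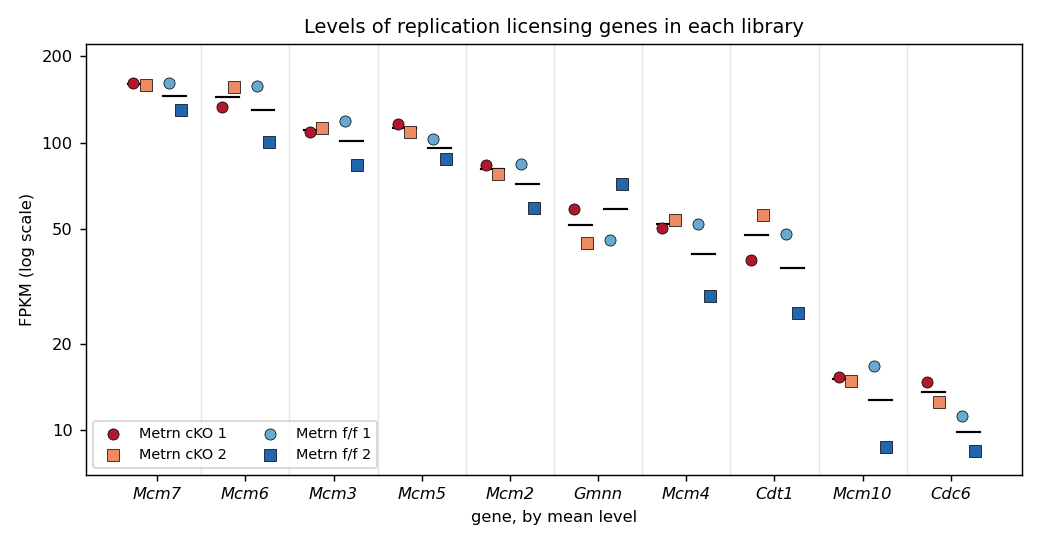
FPKM of each licensing gene on a log axis, with 1 point per library and a short line at the mean of each genotype; genes are ordered by mean level. Metrn f/f 2 is the lowest point for 9 genes and the highest for Gmnn, at 71.9 FPKM.

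By mean over the 4 libraries the order of levels was Mcm7, Mcm6, Mcm3, Mcm5, Mcm2, Gmnn, Mcm4, Cdt1, Mcm10 and Cdc6. Mcm7 lay above Mcm6, Mcm6 above Mcm3, Mcm5 above Mcm2 and Cdt1 above Mcm10 in each of the 4 libraries. Mcm10 also lay above Cdc6 in all 4, but by a log2 ratio of only 0.06 in Metrn cKO 1 and 0.04 in Metrn f/f 2. Mcm3 and Mcm5 changed places between libraries, with Mcm3 higher in 2 of 4, and so did Gmnn and Mcm4. The order of neighbours between Mcm2 and Gmnn, and between Mcm4 and Cdt1, held in 3 of 4 libraries.

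The comparison of genotypes asked whether licensing genes of LSK cells differ in mice whose myeloid cells lack Metrn. No licensing gene passed limma on log2(FPKM + 1): each had an adjusted p of 1.00 over the 13148 genes tested, which reached 1 FPKM in 2 or more libraries. Of all tested genes 0% passed at an adjusted p of 0.05, with 0 calls and 39 genes at an unadjusted p under 0.05. For a single gene, 2 mice against 2 cannot give an exact permutation p below 0.333 (2-sided). The groups were apart, with Metrn cKO higher, in 2 of the 10 licensing genes, Mcm5 and Cdc6, against 6.31% of all tested genes. They were apart with Metrn cKO lower in 0 of 10, against 5.73% of all tested genes. With libraries scaled to the same sum the first count was 0, and with libraries shifted to the same median, or scaled by a trimmed mean, it was 1, Cdc6.

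The estimates were small and their intervals wide. Cdc6 averaged 13.6 ± 1.57 FPKM in Metrn cKO and 9.86 ± 1.94 FPKM in Metrn f/f (SD, n = 2 each), a log2 fold change of 0.43 with a 95% interval of -0.64 to 1.51. Cdt1 averaged 47.5 ± 11.9 FPKM in Metrn cKO and 36.7 ± 15.8 in Metrn f/f, a log2 fold change of 0.41 (-0.71 to 1.52). For Mcm4 the means were 52.2 ± 2.52 and 40.8 ± 16.2 FPKM, in the same order of groups, and the log2 fold change was 0.40 (-0.63 to 1.44). These were the 3 largest estimates among the licensing genes. Mcm5 averaged 113 ± 5.10 FPKM in Metrn cKO and 95.3 ± 10.7 FPKM in Metrn f/f, with a log2 fold change of 0.24 (SE 0.39). Mcm10, Mcm2, Mcm6, Mcm3 and Mcm7 had log2 fold changes between 0.14 and 0.29, with standard errors of 0.40 to 0.48. Gmnn averaged 51.8 ± 9.85 FPKM in Metrn cKO and 58.9 ± 18.4 FPKM in Metrn f/f, a log2 fold change of -0.16 (SE 0.42). The median over the 10 genes was 0.21, and over all tested genes it was 0.07. All 10 intervals included 0.

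Metrn f/f 2 set most of these estimates. The median log2 fold change of the licensing genes was -0.02 without Metrn f/f 2 and 0.47 without Metrn f/f 1. The estimates of Mcm2, Mcm3, Mcm4, Mcm6, Mcm7, Mcm10 and Cdt1 lay between -0.14 and -0.0019 without Metrn f/f 2, and that of Gmnn was 0.16. Mcm5 and Cdc6 kept a positive estimate with each library left out in turn, from 0.13 to 0.36 for Mcm5 and from 0.25 to 0.62 for Cdc6. Between the 2 most alike libraries, Metrn cKO 2 and Metrn f/f 1, the licensing genes differed by -0.16 to 0.22 on the log2 scale, and 4 of 10 were higher in Metrn cKO 2.

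**Figure D2:**
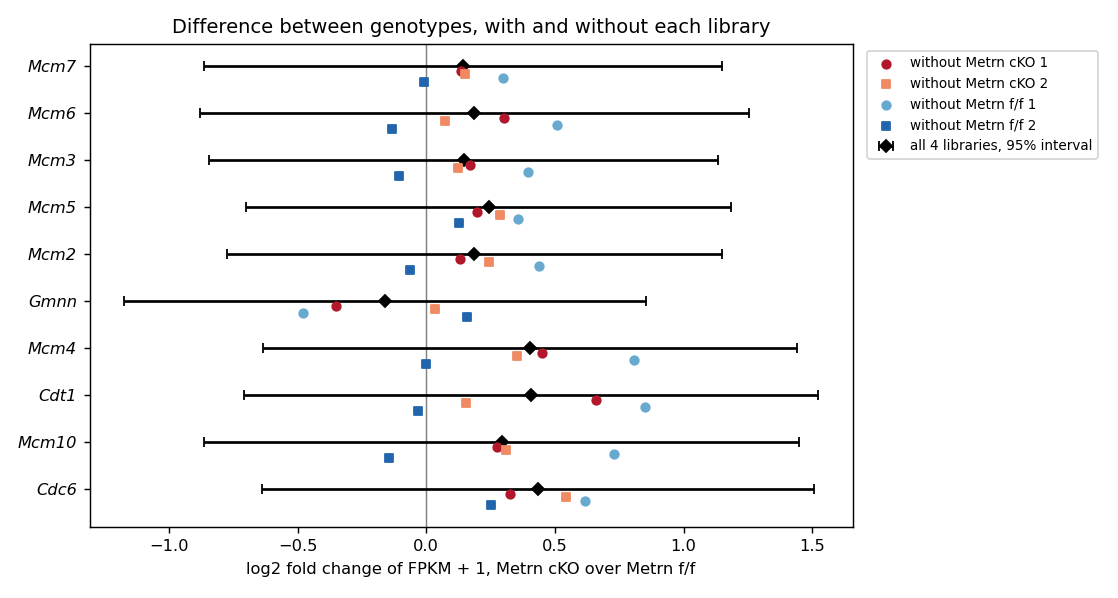
Log2 fold change of each licensing gene, Metrn cKO over Metrn f/f, on the log2(FPKM + 1) scale: black diamonds with 95% intervals come from all 4 libraries, and coloured points from fits without 1 library. Every interval spans 0, and the points without Metrn f/f 2 lie near or below 0 for all genes except Mcm5, Cdc6 and Gmnn.

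The shortfall in Metrn f/f 2 was also seen in many other genes, though in a smaller share of them. Of all tested genes 44.5% were lowest in Metrn f/f 2 and 29.8% were highest there, against 9 and 1 of the 10 licensing genes. The split followed transcript length. Genes were divided into 5 bins of about equal number by transcript length. In the bin with the shortest transcripts (up to 1299 nt) the median log2 difference between Metrn f/f 2 and Metrn f/f 1 was 0.92, and in the bin with the longest (4569 nt and more) it was -1.28. The bins between had medians of 0.33, -0.22 and -0.66. From the shortest to the longest bin, 11.4%, 12.6%, 45.1%, 69.6% and 86.6% of genes were lowest in Metrn f/f 2. The same direction, less steep, was seen for Metrn cKO 1 against Metrn cKO 2, at 0.15 in the shortest and -0.66 in the longest bin. Metrn cKO 2 against Metrn f/f 1 showed medians of only 0.09 to -0.02. Across 12426 genes with a known length, the correlation of log2 length with the difference between Metrn f/f 2 and Metrn f/f 1 was r = -0.53, and across the 10 licensing genes it was r = -0.76. The latter value rests largely on Gmnn, which has the shortest transcript (1127 nt) and the only positive difference, 0.64. Cdt1, the next shortest at 2189 nt, had the most negative difference, -0.88. Genes are not independent replicates, since they share the libraries and the length that FPKM is divided by, so these values describe the 2 libraries only.

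Gmnn has the shortest transcript of the set, 1127 nt, and the other 9 run from 2189 nt for Cdt1 to 4867 nt for Mcm10. The log2 difference between Metrn f/f 2 and Metrn f/f 1 was 0.64 for Gmnn, where its length bin had a median of 0.92. It was -0.50 for Mcm2 and -0.81 for Mcm4, beside -0.66 for their bin, and -0.31 for Mcm7 and -0.37 for Cdc6, beside -0.22. These last 4 genes differed from the median of their bin by no more than 0.17. Cdt1 stood farthest from the median of its bin, at -0.88 against 0.33. Its 2189 nt lie near the upper edge of that bin (1300 to 2203 nt), and the next bin had a median of -0.22. With the length trend removed, Cdt1 stood at 5.63 in Metrn f/f 1 and 4.71 in Metrn f/f 2 on the log2 scale. Mcm6 lay 0.42 below the median of its bin, and Mcm5 and Mcm10 lay 0.44 and 0.41 above theirs. Mcm3 lay 0.28 below its own. The bins are wide, so each of these gaps also holds the length trend inside a bin.

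With the length trend removed from each library, a fit added after the trend was seen, the log2 fold change of Gmnn turned to 0.07 and the median of the licensing genes was 0.08, against 0.01 over all genes with a length. The estimates of Cdt1 and Cdc6 were then 0.42 and 0.38 (SE 0.38 and 0.27), that of Mcm4 was 0.23 (SE 0.23) in place of 0.40, and the other estimates lay between 0.03 and 0.09. No gene passed (adjusted p of 1.00 by limma). On this scale 4 licensing genes were lowest in Metrn f/f 2, namely Mcm4, Mcm6, Cdt1 and Cdc6, against 30.6% of all genes. The groups were apart with Metrn cKO higher in Mcm4 and Cdc6 and no longer in Mcm5, against 7.999% of all genes. The part of the mature cell markers, of RNA quality and of library preparation in the length trend was not tested.

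**Figure D3:**
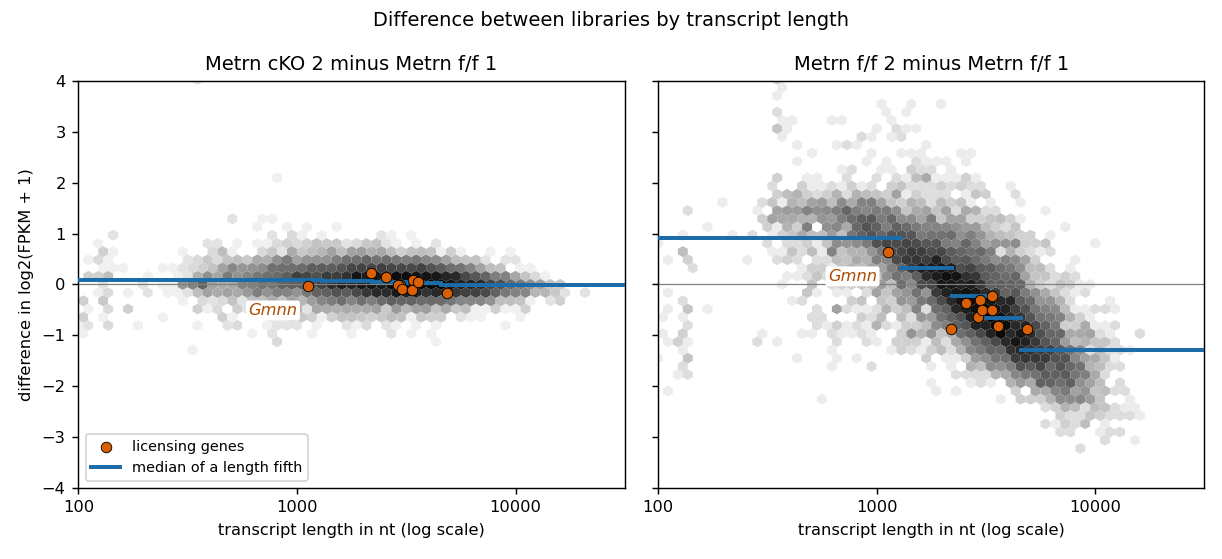
Difference in log2(FPKM + 1) between 2 libraries against transcript length in nt on a log axis, with tested genes of known length in grey (darker is denser), licensing genes in orange and the median of each length bin as a blue line. The lines stay between 0.09 and -0.02 for Metrn cKO 2 minus Metrn f/f 1 and descend from 0.92 to -1.28 for Metrn f/f 2 minus Metrn f/f 1, where Gmnn lies above 0 and the other licensing genes below.

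Ratios between genes of the same library do not depend on how libraries are scaled to each other, but the length trend can enter them. The 6 ring subunits stand in equal numbers in the loaded helicase, but their transcripts did not stand in equal shares. Mcm7 took 24.6% and 23.8% of the summed ring FPKM in Metrn cKO 1 and 2, and 23.8% and 26.4% in Metrn f/f 1 and 2. Mcm4 took the smallest share in every library, 7.73% and 8.09% in Metrn cKO and 7.72% and 5.99% in Metrn f/f. The ratio of Mcm7 to Mcm4 was thus 2.94 to 3.18 in 3 libraries and 4.41 in Metrn f/f 2. The ring shares and this ratio were not corrected for the length trend, and Mcm4 has the longer transcript (3589 nt, against 2962 nt for Mcm7). Mcm6 took 20.3% and 23.3% in Metrn cKO, against 23.3% and 20.5% in Metrn f/f. Its share was lower in Metrn cKO 1 and Metrn f/f 2, the libraries with high markers of mature cells, and the share of Mcm5 was higher there, at 17.8% and 17.9% against 16.3% in Metrn cKO 2 and 15.2% in Metrn f/f 1. Mcm2 kept a share of 11.6% to 12.8% and Mcm3 of 16.7% to 17.6%.

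The ratio of the inhibitor to the loader varied more than any ring share. Gmnn stood to Cdt1 as 1.504 and 0.802 in Metrn cKO 1 and 2, and as 0.957 and 2.82 in Metrn f/f 1 and 2. The groups overlapped, with Metrn cKO 2 and Metrn f/f 1 below 1 and the other 2 libraries above 1. On the log2 scale the ratio averaged 0.14 ± 0.64 in Metrn cKO and 0.72 ± 1.10 in Metrn f/f (SD, n = 2 each), a difference of -0.58 that was smaller than either spread. The difference was 0.20 when Metrn f/f 2 was left out and -1.36 when Metrn f/f 1 was. Leaving out Metrn cKO 1 or Metrn cKO 2 gave -1.03 and -0.13. Gmnn and Cdt1 differ in transcript length, and with the length trend removed the log2 ratio was 0.57 and -0.10 in Metrn cKO and 0.19 and 0.99 in Metrn f/f, a difference of -0.35. Relative to the mean of the ring genes, Gmnn stood at 0.541 and 0.403 in Metrn cKO and at 0.407 and 0.880 in Metrn f/f. Cdt1 stood to Cdc6 as 2.66 and 4.48 in Metrn cKO and as 4.27 and 3.01 in Metrn f/f.

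**Figure D4:**
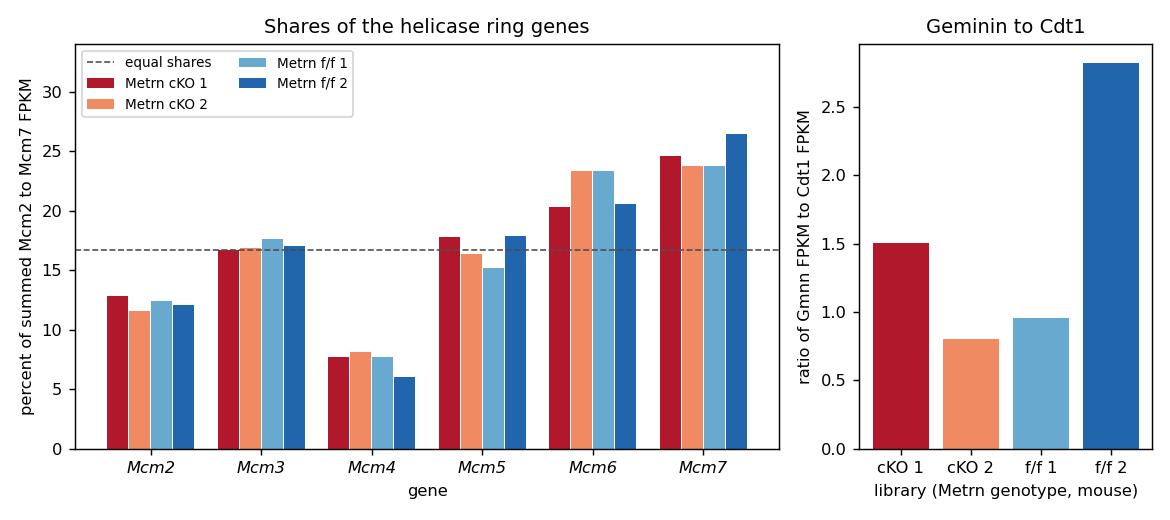
Left, share of each ring gene in the summed FPKM of Mcm2 to Mcm7, as 1 bar per library, with a dashed line at equal shares; right, ratio of Gmnn to Cdt1 FPKM per library. Mcm4 has the lowest bars at 5.99% to 8.09%, and the Gmnn to Cdt1 ratio runs from 0.802 in Metrn cKO 2 to 2.82 in Metrn f/f 2.

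The other genes of origin firing and DNA synthesis were examined in lists, in which no gene passed in either direction (adjusted p of 1.00 by limma). The origin recognition list, the landing platform for Cdc6, had a median log2 fold change of -0.01 over 7 genes. In 1 of 7 the groups were apart with Metrn cKO higher, against 6.31% of all tested genes. This was Orc1, the subunit most tied to the cell cycle, at 4.35 and 4.97 FPKM in Metrn cKO and 4.12 and 3.50 in Metrn f/f. Its most abundant genes, Lrwd1, an adaptor of the complex, and Orc6, a subunit of it, had 43.6 and 29.7 FPKM in Metrn f/f 2, their highest library. Between Metrn f/f 2 and Metrn f/f 1 the members of the list went both ways, from a log2 difference of -1.10 for the subunit Orc3 to 0.58 for Orc6, with a median of 0.03.

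Helicase activation, the step after loading, had a median log2 fold change of 0.26 over 12 genes, which was 0.11 without Metrn cKO 1 and 0.12 without Metrn f/f 2. The groups were apart with Metrn cKO higher in 2 genes and lower in 0, against 6.31% and 5.73% of all tested genes. Cdc7, the kinase that phosphorylates the loaded ring, was 1 of them, at 19.1 and 21.1 FPKM in Metrn cKO and 18.3 and 11.2 in Metrn f/f (log2 fold change 0.46, SE 0.44). Its estimate was 0.13 without Metrn f/f 2 and 0.79 without Metrn f/f 1. The other was Donson, named because its groups did not overlap. Topbp1, a scaffold of origin firing with a transcript of 5224 nt, had 32.8 and 57.9 FPKM in Metrn cKO and 59.0 and 16.8 in Metrn f/f. Gins2, a subunit of the active helicase with a transcript of 3900 nt, ran the other way within Metrn f/f. It had 34.2 and 24.4 FPKM in Metrn cKO and 26.5 and 42.2 in Metrn f/f.

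Factors that control licensing had a median log2 fold change of 0.24 over the 10 tested of 12 genes, which was -0.07 and 0.55 when Metrn f/f 2 or Metrn f/f 1 was left out. Leaving out Metrn cKO 1 or Metrn cKO 2 gave 0.41 and 0.09. Groups stood apart with Metrn cKO higher in 2 genes and lower in 0, against 6.31% and 5.73% of all tested genes. Skp2, the ubiquitin ligase subunit that takes part in the removal of Cdt1, had 9.70 and 7.79 FPKM in Metrn cKO and 6.01 and 3.19 FPKM in Metrn f/f. Its log2 fold change of 0.84 (SE 0.53) was the largest of the list and ranged from 0.47 to 1.21 with each library left out. Fbxo5, an inhibitor of the complex that degrades geminin, had 33.9 and 26.9 FPKM in Metrn cKO and 20.8 and 20.9 FPKM in Metrn f/f (log2 fold change 0.52, SE 0.39). These are the 2 genes of this list whose groups did not overlap, as was so in this direction for 6.31% of all tested genes. Cks1b, a small partner of Skp2 with a transcript of 849 nt, had 119.8 and 97.0 FPKM in Metrn cKO and 99.2 and 182 in Metrn f/f. Ddb1, an adaptor of the ligase that degrades Cdt1 in S phase, had 79.3 and 108 FPKM in Metrn cKO and 112 and 50.7 in Metrn f/f. The geminin relatives Gmnc and Mcidas, known from multiciliated cells, were not tested, since Gmnc was listed at 0 in all libraries and Mcidas in 3.

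Replication fork genes, 24 in number, had a median log2 fold change of 0.13, which was -0.04 without Metrn f/f 2 and 0.24 without Metrn f/f 1. The groups were apart with Metrn cKO higher in 0 genes and lower in 2, against 6.31% and 5.73% of all tested genes. The 2 genes were Prim1, a primase subunit, and Tipin, a fork protection factor, named for their groups that did not overlap. Pcna, the sliding clamp, had 364 and 276 FPKM in Metrn cKO and 255 and 455 FPKM in Metrn f/f, and so was highest in Metrn f/f 2, as was Gmnn. Rfc2, a clamp loader subunit, has a transcript of 4995 nt and was also highest in Metrn f/f 2. It had 86.4 and 117 FPKM in Metrn cKO and 108 and 123 in Metrn f/f. Clspn and Timeless, which couple the helicase to checkpoint signalling, both had a log2 fold change of 0.72, with standard errors of 0.61 and 0.62. Without Metrn f/f 2 the estimates were -0.04 and -0.06. Clspn had 12.4 and 13.2 FPKM in Metrn cKO and 13.2 and 3.97 in Metrn f/f, and Timeless had 18.2 and 30.5 in Metrn cKO and 24.7 and 7.71 in Metrn f/f. In this list 12 genes were lowest and 10 highest in Metrn f/f 2.

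E2F and pocket protein genes had a median log2 fold change of 0.29 over 13 genes, which was -0.03 without Metrn f/f 2 and 0.55 without Metrn f/f 1. The groups were apart with Metrn cKO higher in 1 gene and lower in 2, against the same shares of all tested genes. The higher gene was E2f1, an activator, at 26.8 and 24.5 FPKM in Metrn cKO and 24.1 and 21.5 in Metrn f/f. E2f4, a member known for repression together with pocket proteins, was lower, at 46.3 and 44.2 FPKM in Metrn cKO and 50.2 and 49.95 in Metrn f/f. E2f5 was the other lower gene, at 2.68 and 1.89 FPKM in Metrn cKO and 3.65 and 5.53 in Metrn f/f (log2 fold change -0.76, SE 0.54). E2f8, an atypical repressor that E2F activators induce, had 32.3 and 22.8 FPKM in Metrn cKO and 23.3 and 9.77 in Metrn f/f. E2f2 (4739 nt) had 34.6 FPKM in Metrn cKO 1 and 8.81 FPKM in Metrn cKO 2, against 8.44 and 11.8 FPKM in Metrn f/f. Its log2 fold change of 0.77 thus rested on Metrn cKO 1, and was -0.16 without it. Tfdp1, the dimer partner of E2F factors, had 127 and 94.9 FPKM in Metrn cKO and 95.9 and 84.6 in Metrn f/f.

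Mitotic genes, which mark later phases of the cycle, had a median log2 fold change of 0.39 over 10 genes. The groups were apart with Metrn cKO higher in 0 genes and lower in 0, against 6.31% and 5.73% of all tested genes. The median was -0.02 when Metrn f/f 2 was left out, 0.68 when Metrn f/f 1 was, and 0.15 when Metrn cKO 1 was. Mki67 (49.2 and 50.1 FPKM in Metrn cKO, 59.0 and 11.05 in Metrn f/f) and Top2a (94.0 and 98.8, against 118 and 37.5) were lowest in Metrn f/f 2, and their transcripts have 10061 and 5221 nt. Cenpe, a kinetochore motor, had 7.76 and 10.1 FPKM in Metrn cKO and 11.2 and 2.17 in Metrn f/f. Ccna2, a cyclin of S and G2 phase, had 66.99 and 40.9 FPKM in Metrn cKO and 39.6 and 47.6 in Metrn f/f. It was thus not lowest in Metrn f/f 2, and its transcript has 2965 nt. Mcm8 and Mcm9, relatives of the ring genes that act in DNA repair, had at most 7.27 and 8.47 FPKM.

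**Figure D5:**
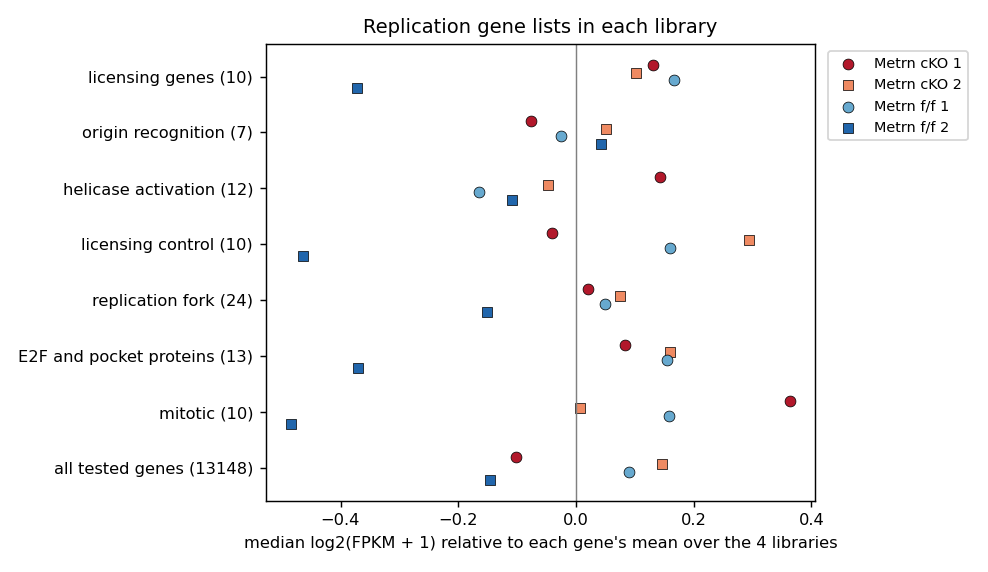
Median over each gene list of log2(FPKM + 1) relative to each gene's own mean over the 4 libraries, with 1 point per library and the number of tested genes in brackets. The licensing genes stand at 0.13 and 0.10 in Metrn cKO 1 and 2, against 0.17 and -0.37 in Metrn f/f 1 and 2, and all tested genes at -0.10 and 0.15, against 0.09 and -0.15.

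Across the 4 libraries, the median licensing gene stood at 0.13 and 0.10 on the log2 scale relative to its own mean in Metrn cKO 1 and 2, against 0.17 and -0.37 in Metrn f/f 1 and 2. Mcm2 and Mcm3 followed this profile most closely, with root mean square differences of 0.04 and 0.05, and Cdt1 and Gmnn least, with 0.24 and 0.47. Of 9592 genes outside the lists with a mean of at least 4 FPKM, the 5 with the most similar profile were Sephs1, Ppm1b, Nup93, Unc119b and Ubqln1, at 0.02 to 0.03 over the 4 libraries. In all, 485 genes came as near to the profile as the median licensing gene. Sephs1, for example, had 15.2 and 14.8 FPKM in Metrn cKO and 15.3 and 10.2 FPKM in Metrn f/f.

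Some licensing genes have close neighbours whose reads or promoters they may share. Mcm4 and Prkdc, the catalytic subunit of a DNA repair kinase, start head to head on chromosome 16. Prkdc had 1.75 and 5.31 FPKM in Metrn cKO and 5.60 and 0.698 FPKM in Metrn f/f. It was thus lowest in Metrn f/f 2 as Mcm4 was, but also low in Metrn cKO 1, where Mcm4 had 50.4 FPKM; the Prkdc transcript has 12647 nt. Mcm7 overlaps Ap4m1, a subunit of a vesicle adaptor, and Cops6 on the opposite strand, and the strand setting is not given in the sources used here, so reads of the overlap cannot be told apart. Ap4m1 had 13.99 and 21.1 FPKM in Metrn cKO and 21.3 and 11.5 FPKM in Metrn f/f.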

How the data were processed

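Per the labels' protocols, LSK cells were sorted from 2 mice per genotype, total RNA was extracted with TRIZOL and treated with DNase I, and standard Illumina libraries were made. The submitters' processing notes list mm10, featureCounts 1.6.4, HISAT2 2.1, cutadapt 1.16.5, bcl2fastq 2.19 and DESeq2 2.11.40.6 without a role; for annotation and strand, nothing is given in the sources used here. The deposited values, 1 table per library, were taken as FPKM normalized by the authors to transcript length and mapped reads, since they are not whole numbers and their sums differ between libraries. No unit stands in the headers, and depth is unknown.

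The 13148 genes that reached 1 FPKM in 2 or more libraries, all 10 licensing genes among them, were tested on log2(FPKM + 1), which understates changes of low genes, by limma 3.58.1 in R 4.3.3 with an intensity trend, 2-sided. The p-values were adjusted by Benjamini-Hochberg over these genes, with 0.05 as the threshold. The test was checked on simulated data whose spread was that of the closest pair of libraries, which is smaller than that within either genotype. Gene positions and transcript lengths (the principal isoform, or the longest) come from GENCODE M21 on GRCm38, the assembly called mm10, and promoters and miRNAs from RefSeq on GRCm38.p6. The length trend was removed by a lowess of centred values on log2 length with a span of 0.3. Beyond the licensing genes, the 2 genes with the highest mean and the 2 with the largest fold change of each list were named; genes named because their groups did not overlap were picked with their values in view.

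The licensing genes and the lists were chosen with earlier results of these data known. Replicates are separate mice per the labels. Alternatives were another pseudocount, filters, 3 scalings, no trend, replicate blocks and each library left out.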

Additional observations from a re-analysis of the deposited data

How the results depend on the processing

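No licensing gene passed under any of the 14 alternatives run. Over all genes, the count of calls was 0 except in 4 fits: 4 with the replicate block, 102 with the crossed pairing (added after the data were seen), and 5 and 34 without Metrn cKO replicate 1 and replicate 2, so that leaving out 1 library gave 0 to 34. The block changed no call of a licensing gene. Same-numbered libraries deviated in opposite directions (correlation across 13148 genes -0.708), which led to the crossed pairing. The median of the licensing genes ran from -0.02 to 0.47 with each library left out, and that of the 82 tested genes of the other lists, mitotic genes and Mcm neighbours included (0.18 with all libraries), from -0.042 to 0.40, with -0.042 without Metrn f/f replicate 2 and 0.40 without Metrn f/f replicate 1. Scaling to the same sum moved the median of all genes, 0.07 as deposited, to 0.15, and the same-median shift to -0.04; relative to these the licensing genes' medians of 0.31 and 0.10 differ little from 0.21, and no licensing gene reversed by scaling. Licensing genes with both Metrn cKO values above numbered 2, but 0 with libraries scaled to the same sum, 1 with the same median and 1 with trimmed mean scaling, and 2 to 9 with 1 library left out; those below numbered 0 to 5. All genes move too: the 9 stand beside 46.2% of all tested genes and the 5 beside 27.4%.

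With 1 library left out, estimates ran from -0.062 to 0.44 for Mcm2, -0.11 to 0.40 for Mcm3, -0.0019 to 0.81 for Mcm4, -0.13 to 0.51 for Mcm6, -0.011 to 0.30 for Mcm7, -0.14 to 0.73 for Mcm10, -0.034 to 0.85 for Cdt1 and -0.48 to 0.16 for Gmnn. They ran from 0.13 to 0.79 for Cdc7, -0.45 to 0.13 for Orc6, -0.43 to 1.33 for Topbp1, -0.040 to 1.48 for Clspn, -0.064 to 1.498 for Timeless, -0.16 to 1.70 for E2f2, -0.24 to 2.07 for Mki67 and -0.30 to 1.64 for Cenpe. With the length trend removed Gmnn turned to 0.065 and Orc6 to 0.035. The lone sample of a group is assumed to vary like the others. Depth is unknown, and n = 2 per genotype limits every estimate.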

Other observations

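The hairpins of Mir25, Mir93 and Mir106b lie within the Mcm7 gene, on its strand (chromosome 5, positions 138165321 to 138165404, 138165523 to 138165610 and 138165737 to 138165818 of GRCm38). The microRNAs are known to act on cell cycle inhibitors, and their mature arms are shown because they form 2 seed groups, with the seed (bases 2 to 8) in capitals (RefSeq, GRCm38.p6).

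mmu-miR-106b-5p: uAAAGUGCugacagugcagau
mmu-miR-93-5p: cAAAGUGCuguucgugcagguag
mmu-miR-25-3p: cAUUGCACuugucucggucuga

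The rows of the hairpins, of 82 to 88 nt, had low values. Mir25 stood at 1.03 and 1.08 FPKM in Metrn cKO, against 4.15 and 4.298 FPKM in Metrn f/f (log2 fold change -1.35, SE 0.51, adjusted p of 1.00 by limma). Mir93 was listed at 0 in both Metrn cKO libraries, against 1.07 and 1.10 FPKM in Metrn f/f. Mir106b was listed at 0 in both Metrn cKO libraries, against 0.706 and 0.383 FPKM in Metrn f/f, and was not tested. The groups were apart with Metrn cKO lower for the tested hairpins Mir25 and Mir93, as for 5.73% of all tested genes, and also for the untested Mir106b. Mcm7 had overlapping groups, at 160.5 and 159 FPKM in Metrn cKO and 161 and 129.6 FPKM in Metrn f/f. Of the 10 annotated Mcm7 transcripts, 1 has an exon at Mir25 and 1 at Mir93, so reads of Mcm7 can fall in those rows. The number of reads behind these values is unknown, standard RNA-seq libraries do not measure mature microRNAs, and the hairpins share their host transcript, so they are not separate observations.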
